A study of Mus musculus with 35 samples.

Results

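Mitochondrial ribosomal protein genes are the nuclear genes whose products build the ribosome inside the mitochondrion. They were taken as the protein-coding RefSeq genes of the mm10 mouse assembly whose symbols begin with Mrpl or Mrps and a number, and 78 of the 21883 protein-coding genes placed on a chromosome met that rule. Of these, 49 are named for the large subunit (Mrpl) and 29 for the small subunit (Mrps). The peaks came from mouse embryonic stem cells of the E14 line, cultured in medium with serum, LIF and 2i, in which doxycycline switches on a NELFA transgene with a Strep-HA tag that is followed by P2A and EGFP. Every ChIP and input library came from cells kept in doxycycline (0.4 µg/ml) for 16 h, so the tagged protein was made from a transgene in all of them. Chromatin was precipitated through the HA tag in 4 libraries, of which 3 used one antibody and 1 used another, and the control was 3 libraries of input chromatin. The labels number 3 replicates. No uninduced ChIP library was analysed here, so signal at a gene cannot be assigned to the induced protein rather than to the antibody.

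The mitochondrial ribosome translates the few proteins encoded by mitochondrial DNA, which are core subunits of the respiratory chain and of ATP synthase. Its own proteins are made in the cytosol and imported. Some descend from the ribosome of the bacterial ancestor, and others were added later and have no bacterial counterpart. NELFA is a subunit of negative elongation factor (NELF), which binds RNA polymerase II shortly after it has started and holds it there until elongation factors release it. A peak of NELFA is therefore usually looked for just downstream of a start site.

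The data are 1 list of 59485 peaks with no column for a single library. Each peak has a fold enrichment, which is the linear ratio of signal to control that the authors' peak caller gave, and a −log10 q-value. The list carries neither read depth nor replicate values, so a fold has no error here and no order is read among genes with near-equal folds. The 78 genes are the complete set under the rule and are not replicates, and no test was run on their shares. A gene was counted as having a boundary peak when a summit, the highest point of a peak, lay within 1 kb of its annotated start or end.

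Boundary peaks were found at 25 of the 78 genes (32.1%), against 18.8% of all protein-coding genes. The large subunit had 16 of 49 (32.7%) and the small subunit 9 of 29 (31.0%). In control windows 5 to 7 kb outside the genes, 5 of the 78 (6.41%) had a summit, against 8.6% of all protein-coding genes. The peaks were weak. The highest fold at each of the 25 genes had a median of 2.18, beside 2.22 over all protein-coding genes with a boundary peak. Only 2 of the 78 genes (2.56%) had a boundary peak with a fold of 3 or more, where 3.43% of all protein-coding genes had one. An excess of the family over all genes was thus seen in the count of boundary peaks. It remained at a −log10 q of 4 or more, with 12 of the 78 (15.4%) against 9.81% of all. At a fold of 3 it was not seen, but that count rests on 2 members.

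**Figure D1:**
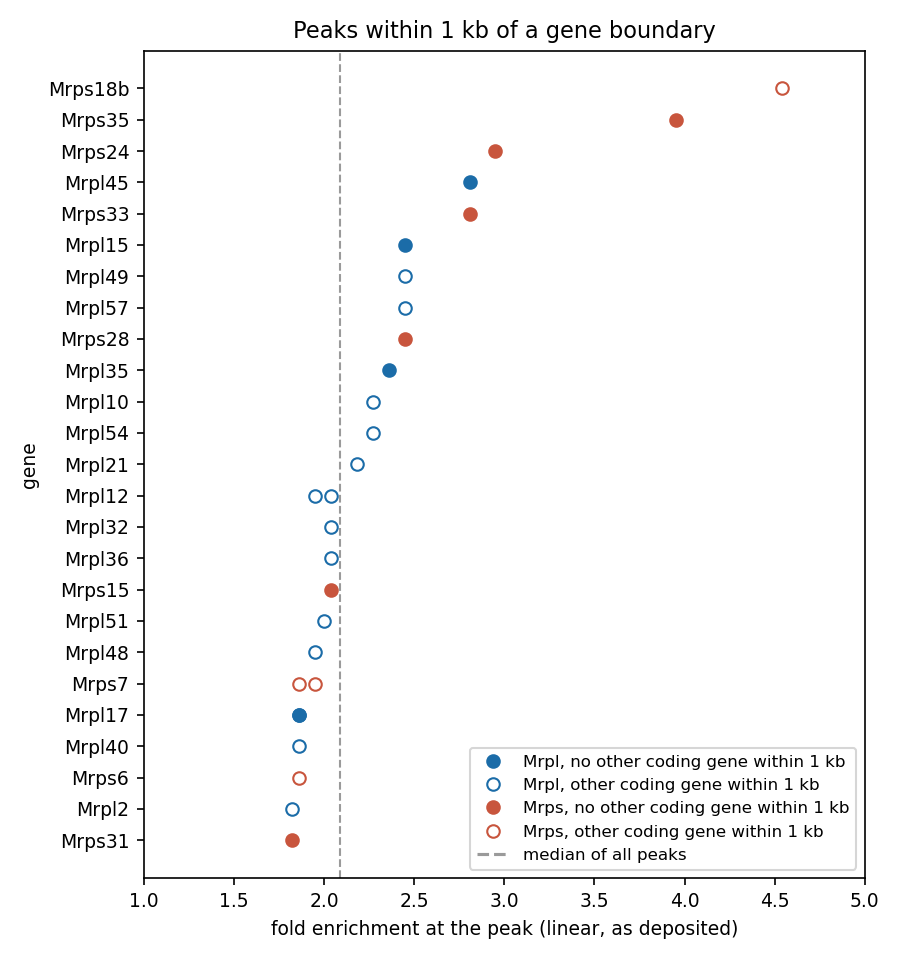
Fold enrichment (linear, as deposited) of the 28 boundary peaks of the 25 genes, 1 row per gene. Open circles are peaks whose summit also lies within 1 kb of another protein-coding gene, the dashed line is the median of all peaks (2.09), and both peaks of Mrpl17 lie at 1.86. Mrps18b and Mrps35 stand above 3 and 13 peaks are at or above the dashed line.

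Start sites and strand were available from RefSeq promoter windows (GRCm38.p6, the assembly that mm10 names) for 69 of the 78 genes. Mrpl4, Mrpl13, Mrpl15, Mrpl19, Mrpl38, Mrpl54, Mrps28, Mrps34 and Mrps35 had no entry. The windows below, from 250 bases before to 50 bases after the start, are shown for the 4 genes with the highest folds among those with an entry (Mrps18b, Mrps24, Mrpl45 and Mrps33) and for 2 genes without a boundary peak, the first in alphabetical order (Mrpl1 and Mrpl11), so that promoters with and without a peak can be read side by side. They lie at chr17:35916391-35916690 (minus strand), chr11:5707652-5707951 (minus), chr11:97315466-97315765 (plus), chr6:39810887-39811186 (minus), chr5:96209865-96210164 (plus) and chr19:4962056-4962355 (plus). Each is printed 5′ to 3′ along its gene, and capitals mark exact matches to the motifs described further on.
Mrps18b: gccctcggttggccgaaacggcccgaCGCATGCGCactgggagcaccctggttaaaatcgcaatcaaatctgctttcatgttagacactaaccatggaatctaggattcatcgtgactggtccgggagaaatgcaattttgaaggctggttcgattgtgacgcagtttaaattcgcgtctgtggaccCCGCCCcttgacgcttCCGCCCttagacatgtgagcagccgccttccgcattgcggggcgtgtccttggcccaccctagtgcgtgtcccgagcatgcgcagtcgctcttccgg
Mrps24: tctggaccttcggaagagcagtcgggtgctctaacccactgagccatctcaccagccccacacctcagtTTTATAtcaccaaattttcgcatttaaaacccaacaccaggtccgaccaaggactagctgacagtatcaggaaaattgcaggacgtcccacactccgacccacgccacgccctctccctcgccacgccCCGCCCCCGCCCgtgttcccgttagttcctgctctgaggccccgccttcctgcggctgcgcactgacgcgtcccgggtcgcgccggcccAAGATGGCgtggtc
Mrpl45: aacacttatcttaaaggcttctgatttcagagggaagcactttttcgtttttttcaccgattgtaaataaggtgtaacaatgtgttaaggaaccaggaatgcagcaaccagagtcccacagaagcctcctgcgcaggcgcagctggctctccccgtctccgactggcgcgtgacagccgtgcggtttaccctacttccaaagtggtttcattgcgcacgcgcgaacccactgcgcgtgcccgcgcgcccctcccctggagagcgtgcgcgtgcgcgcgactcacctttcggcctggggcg
Mrps33: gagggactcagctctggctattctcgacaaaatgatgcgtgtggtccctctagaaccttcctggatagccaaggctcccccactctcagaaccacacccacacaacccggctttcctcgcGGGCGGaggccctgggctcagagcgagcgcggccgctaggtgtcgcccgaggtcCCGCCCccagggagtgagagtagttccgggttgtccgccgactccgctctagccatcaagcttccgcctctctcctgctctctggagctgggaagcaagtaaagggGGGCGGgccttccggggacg
Mrpl1: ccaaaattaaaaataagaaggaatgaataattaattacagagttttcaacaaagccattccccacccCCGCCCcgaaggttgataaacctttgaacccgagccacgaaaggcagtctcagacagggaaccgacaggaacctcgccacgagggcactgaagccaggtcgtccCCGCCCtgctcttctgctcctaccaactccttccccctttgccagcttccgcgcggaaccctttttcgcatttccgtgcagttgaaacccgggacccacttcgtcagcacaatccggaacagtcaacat
Mrpl11: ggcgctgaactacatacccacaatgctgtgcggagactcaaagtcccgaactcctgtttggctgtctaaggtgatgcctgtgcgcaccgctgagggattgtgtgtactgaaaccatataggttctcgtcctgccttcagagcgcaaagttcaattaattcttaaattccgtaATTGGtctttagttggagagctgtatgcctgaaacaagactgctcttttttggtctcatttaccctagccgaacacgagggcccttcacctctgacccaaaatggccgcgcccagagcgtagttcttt
With the start site counted as 0, the window of Mrps18b held the NRF1 letters at -224 and the SP/KLF letters at -63 and -47. The window of Mrps24 held SP/KLF letters at -53 and -47, the TBP letters at -181 and the YY1 letters at 36, just downstream of the start. Mrps33 had only SP/KLF letters, at -130, -76 and 30, and the window of Mrpl45 had no match, although it is the only 1 of the 4 that holds its own summit. Of the genes without a peak, Mrpl1 had SP/KLF letters at -183 and -79, and Mrpl11 had a single CCAAT box at -78. All these matches were on the reverse strand, except the YY1 letters of Mrps24 and the SP/KLF letters of Mrps33 at -130 and 30. All 6 windows were rich in CpG, with 25 CpG pairs in Mrps18b, 24 in Mrps24, 27 in Mrpl45, 21 in Mrps33, 17 in Mrpl1 and 13 in Mrpl11.

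The summits lay at the start of these genes and not at their end. Of the 69 genes with a start site, 22 (31.9%) had a summit within 1 kb of it, against 18.6% of all 17491 protein-coding genes with an entry. None had a summit within 1 kb of the 3′ end, against 4.39% of all. Within 100 bp of a start site, 14 of the 69 (20.3%) had a summit, against 7.67% of all. Within 100 bp of either boundary the count was 14 of 78 (17.9%), against 5.76%. The 22 genes held 25 summits within 1 kb of a start, and 12 of them (48%) fell from 0 to 100 bp downstream, where 24.9% of the 4206 such summits of all protein-coding genes fell. A further 7 (28%) lay more than 100 bp upstream, beside 27% over all genes. At any distance downstream within 1 kb the family had 15 of the 25 (60%), against 65.6% over all genes. The median position was 13 bp downstream for the family and 71 bp over all genes.

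**Figure D2:**
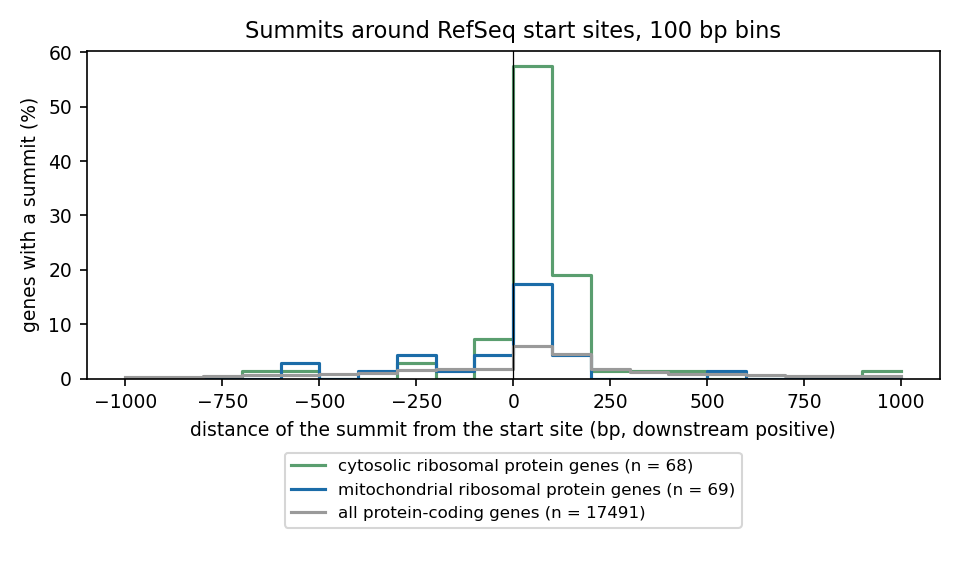
Share of genes (%) with a summit in each 100 bp bin around the start site, for mitochondrial ribosomal protein genes, cytosolic ribosomal protein genes and all protein-coding genes. The first 100 bp downstream hold a summit in 17.4% of the mitochondrial, 57.4% of the cytosolic and 5.95% of all genes.

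Among large subunit proteins with a bacterial counterpart, 9 of 28 genes (32.1%) had a boundary peak, against 18.8% of all protein-coding genes. Mrpl15 had a fold of 2.45, its summit 94 bp inside the gene. Mrpl35 had 2.36 and a summit 70 bp downstream of its start. Mrpl10 and Mrpl12 encode the stalk that recruits translation factors, Mrpl10 as its base and Mrpl12 as the copies bound to it, and both genes had peaks. Mrpl10 had a fold of 2.27 at 44 bp downstream of its start. Mrpl12 had a pair of peaks, 1 at 76 bp upstream with a fold of 2.04 and 1 at 81 bp downstream with 1.95. Mrpl21 had a fold of 2.18 at 25 bp downstream. Mrpl32, whose product is trimmed by a mitochondrial protease before it is assembled, had 2.04 at 277 bp upstream. Mrpl36 had 2.04, 71 bp outside its annotated start, and a further peak of 1.86 at 140 bp downstream of its listed start site, which lies deeper in the gene. Mrpl17 had 2 peaks of 1.86, at 21 and 191 bp downstream. Mrpl2, a protein near the peptidyl transferase centre, had 1.82 at 24 bp downstream. All folds of this group thus lay between 1.82 and 2.45.

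Among large subunit proteins with no bacterial counterpart, 7 of 23 (30.4%) had a boundary peak, against 18.8% of all protein-coding genes. Mrpl45, which lies near the exit of the nascent chain and helps to anchor the ribosome at the inner membrane, had the highest fold of the large subunit, 2.81. Its summit lay 26 bp upstream of its listed start site and 767 bp inside its annotated boundary. Mrpl49 and Mrpl57 had 2.45 each, with summits 13 and 11 bp downstream. Mrpl54 had 2.27 with its summit 174 bp inside the gene. Mrpl51 had 2.0 at 310 bp upstream, Mrpl48 1.95 at 169 bp upstream of the nearest of its 4 listed start sites and Mrpl40 1.86 at 226 bp upstream. By annotated boundaries the last 3 summits were each closer to a neighbouring gene. For Mrpl48 the neighbour's boundary lay 216 bp from the summit, and the distance to a start site of that neighbour was not measured. Mrps18a and Mrps30 are counted here because their products sit in the large subunit despite their names, and neither had a boundary peak.

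Among small subunit proteins with a bacterial counterpart, 5 of 16 (31.2%) had a boundary peak, against 18.8% of all protein-coding genes. Mrps24 led with a fold of 2.95 and a −log10 q of 11.0, 73 bp downstream of its start. Mrps28 had 2.45 at 241 bp inside the gene. Mrps15 had 2.04 at 88 bp downstream. Mrps7, which binds the small subunit rRNA, had 1.95 at 283 bp upstream and 1.86 at 39 bp upstream. Mrps6 had 1.86 at 58 bp downstream. Apart from Mrps24 and Mrps28, the folds of this group were at or below 2.04, under the median of the whole list (2.09).

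Among small subunit proteins with no bacterial counterpart, 4 of 10 (40%) had a boundary peak, against 18.8% of all protein-coding genes. The highest folds of the whole family were in this class. Mrps18b had a fold of 4.54 with a −log10 q of 31.4 over an interval of 1065 bp (chr17:35916313-35917377). Mrps18b is 1 of 3 paralogues, and Mrps18a and Mrps18c had no boundary peak. Only Mrps18c of these was classed as having a bacterial counterpart, so the classes do not follow descent for these paralogues. Mrps35 had 3.95 with a −log10 q of 23.1 (chr6:147042681-147043018), 113 bp inside the gene. Mrps33 had 2.81 at 108 bp downstream of its start. Mrps31 had 1.82 at 8 bp downstream of its listed start site, which put it 899 bp inside the annotated boundary and just within the 1 kb window. The summit of Mrps35 had no other protein-coding gene within 1 kb, whereas that of Mrps18b lay between the gene and a neighbour.

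Some of the higher folds lay in parts of the genome where the whole list is dense. The 1 Mb window that holds a boundary of Mrps18b had 93 peaks, that of Mrps35 43 and that of Mrps33 101, where the median over all protein-coding genes was 14. The windows of Mrps24 and Mrpl45 held 13 and 19. In all, 16 members lay in windows with 30 or more peaks and 8 of them (50%) had a boundary peak, against 39% of all protein-coding genes in such windows. Of the 7 members on chromosome 6, 4 had one (Mrps35, Mrps33, Mrpl35 and Mrpl51), and 1 of 2 on chromosome 8 (Mrps31). Together these are 5 of 9 (55.6%), against 50.3% of all genes on both chromosomes. The part of this density in the peaks of those genes was not tested. Outside such windows 17 of 62 members (27.4%) had a boundary peak, against 13.5% of all genes.

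With both subunits joined, 14 of 44 genes with a bacterial counterpart (31.8%) and 11 of 33 without one (33.3%) had a boundary peak, against 18.8% of all protein-coding genes. Within 100 bp of a listed start site the counts were 10 of 39 (25.6%) and 4 of 29 (13.8%), against 7.67% of all. The difference between these classes was not tested. Mrps36 was left out of both classes, since its product is now assigned to a dehydrogenase complex, and had no peak.

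Many of these genes share a promoter region with another gene, and this touches most of the weaker calls. Of the 69 genes with a start site, 27 (39.1%) stood head to head with another protein-coding gene, against 10.3% of all such protein-coding genes. Head to head means that the annotated 5′ boundaries of both genes lie within 1 kb of each other on opposite strands. Listed start sites, which can lie deeper in a gene, were not used for this. Among the 27, 11 (40.7%) had a boundary peak, against 36.7% of all head-to-head genes. Among the other 42, 10 (23.8%) had one, against 17.1% of all genes not head to head. In 15 of the 25 genes with a peak, a summit also lay within 1 kb of another protein-coding gene. In 8 of them every such summit was nearer to the neighbour, by distance to annotated boundaries and not to listed start sites. When a summit counted only for the gene with the nearest boundary, a setting added after the data were seen, 17 of 78 (21.8%) had a boundary peak, against 17.0% of all genes. The large subunit then had 9 of 49 and the small subunit 8 of 29.

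The 8 genes whose summits were nearer to a neighbour's annotated boundary include the one with the highest fold. The summit at Mrps18b lay 596 bp upstream of it and 524 bp from Ppp1r10, which encodes a regulatory subunit of protein phosphatase 1. Mrpl32 shared its peak with Psma2, a proteasome subunit gene, at 277 and 72 bp. Mrpl36 shared with Ndufs6, a subunit gene of respiratory complex I, at 71 and 50 bp. In each of these cases both genes lay within 1 kb of the summit, so the peak counted for both. Mrpl40 shared with the histone chaperone gene Hira (226 and 113 bp) and Mrpl51 with the condensin gene Ncapd2 (310 and 210 bp). Mrpl48 shared with the GTPase gene Rab6a (510 and 216 bp from the annotated boundaries). For Mrpl21 and Ighmbp2 (70 and 57 bp) and for Mrpl2 and Klc4 (89 and 72 bp), the summit was nearly as near to one boundary as to the other. From their own listed start sites the summits of Mrpl21, Mrpl2 and Mrpl48 lay 25, 24 and 169 bp away. These distances are shorter than those to the neighbour's boundary, but the measures are unlike. Distances to the listed start sites of the neighbours were not measured.

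In 7 genes the shared summit was nearer to the mitochondrial ribosomal protein gene. Mrpl57 lay 22 bp from its summit and the kinetochore gene Ska3 41 bp. Mrpl49 lay 13 bp from its summit and Fau, whose product is cut into a cytosolic ribosomal protein and a ubiquitin-like protein, 205 bp. Mrps6 and Slc5a3 (58 and 72 bp), Mrpl10 and Lrrc46 (44 and 257 bp), Mrpl54 and Apba3 (174 and 183 bp), Mrpl12 and Hgs (76 and 577 bp) and Mrps7 and Gga3 (39 and 416 bp) made up the rest. The other 10 genes (Mrps35, Mrps24, Mrpl45, Mrps33, Mrpl15, Mrps28, Mrpl35, Mrps15, Mrpl17 and Mrps31) had peaks with no other protein-coding boundary within 1 kb. Of the 5 highest folds in the family, 4 belong to this last set. The head-to-head pair Mrps11 and Mrpl46, both members of the family, had no boundary peak.

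The promoters of the family were rich in CpG, the dinucleotide that is depleted in most of the genome and kept in CpG islands. The observed number of CpG pairs over the number its C and G content predicts had a median of 0.818 in the 69 windows, against 0.577 in those of all protein-coding genes. A ratio of 0.6 or more was found in 64 of the 69 (92.8%), against 48.4% of all. Among those 64 genes, 21 (32.8%) had a boundary peak, against 29.8% of all protein-coding genes with such a promoter. None of the 5 below that ratio had a peak, against 9.17% of all genes below it. Among CpG-rich genes not head to head, 10 of 38 (26.3%) had a peak, against 27.8% of all such genes. Among CpG-rich head-to-head genes it was 11 of 26 (42.3%), against 39.2%. The share of the family with a peak was therefore close to that of genes with the same promoter composition and the same arrangement of neighbours. Summits within 100 bp of a start site were found at 14 of the 64 CpG-rich members (21.9%), against 13.6% of all CpG-rich genes. That count was not split by the arrangement of neighbours. Head-to-head genes made up 26 of the 64 members and 1490 of all 8465 CpG-rich genes.

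**Figure D3:**
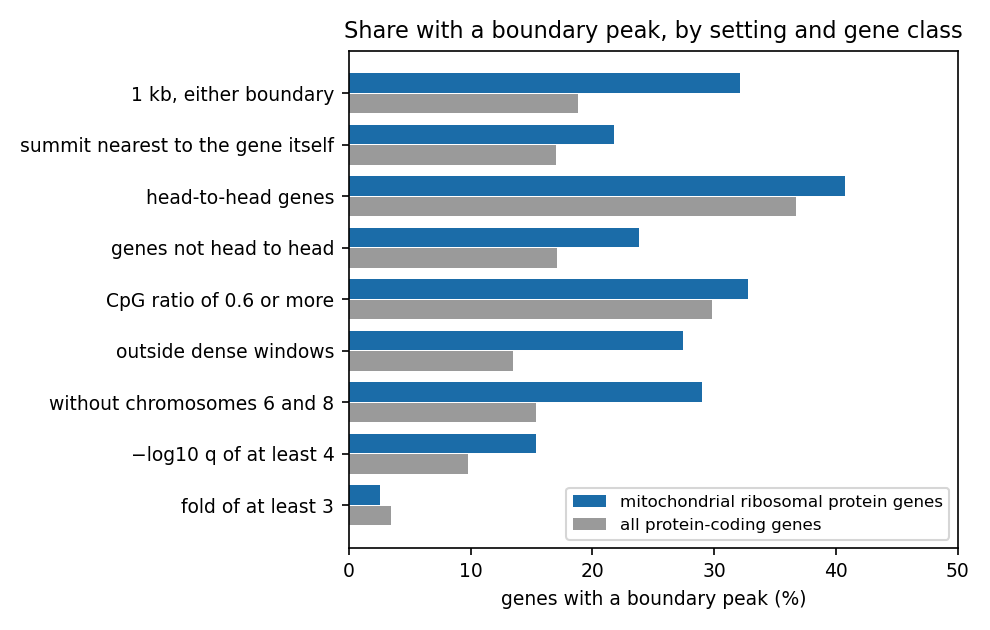
Share of genes (%) with a boundary peak in the family and in all protein-coding genes, under several settings and gene classes. Dense windows are 1 Mb windows with 30 or more peaks. The bars are apart for all genes (32.1% and 18.8%), outside dense windows (27.4% and 13.5%) and without chromosomes 6 and 8 (29.0% and 15.4%), and closer for CpG-rich promoters (32.8% and 29.8%).

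Motifs were searched as exact letters on both strands of the windows, 1 window per gene. The YY1 letters AAGATGGC were found in 12 of the 69 promoters (17.4%), against 3.21% of all protein-coding promoters. The ETS letters CCGGAAGT were in 11 (15.9%), against 5.28%, and the NRF1 letters GCGCATGCG in 7 (10.1%), against 2.41%. Factors of these families are known regulators of nuclear genes for mitochondrial proteins. The ETS and NRF1 letters each contain CpG, and the motif shares were not split by CpG ratio. That ratio was 0.6 or more in 92.8% of the family windows, against 48.4% of all. Promoters with a boundary peak held the YY1 letters in 6 of 21 cases (28.6%) and those without in 6 of 48 (12.5%). For NRF1 the counts were 4 of 21 (19.0%) and 3 of 48 (6.25%). Over all protein-coding genes the order was the same, with 5.88% and 2.57% for YY1 and 5.46% and 1.69% for NRF1. The ETS letters went the other way, with 1 of 21 (4.76%) and 10 of 48 (20.8%). Over all protein-coding genes, promoters with a boundary peak held the ETS letters in 7.35% and those without in 4.79%, so the order seen in the family was not that of the genome. These counts are small and are given as a description of letters, not of factor binding.

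The SP/KLF letters GGGCGG were in 34 of the 69 promoters (49.3%), against 46.3% of all. They were in 14 of 21 with a boundary peak (66.7%) and in 20 of 48 without (41.7%), beside 62.3% and 42.5% over all genes. The CCAAT box, bound by NF-Y, was in 5 of 21 (23.8%) and 22 of 48 (45.8%), beside 37.9% and 39.5% over all genes. In the family as a whole it was in 27 of 69 (39.1%), against 39.2% of all promoters. The TATA letters TATAAA, the box bound by TBP, were in 4 of the 69 (5.8%), against 13.3%. The CRE letters TGACGTCA were in 2 (2.9%), against 2.33%, and the ZNF143 or THAP11 letters ACTACAATT in none, against 0.543%. None of these motifs contains another.

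**Figure D4:**
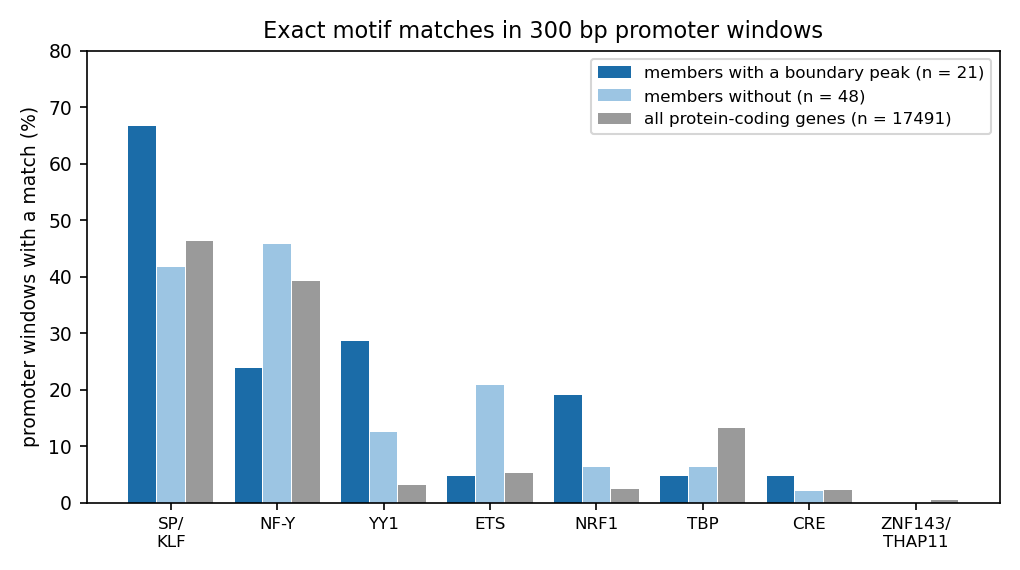
Share of 300-base promoter windows (%) with an exact match to each motif in family members with a boundary peak, members without one and all protein-coding genes; NF-Y is the CCAAT box and TBP the TATA box. Members with a peak are highest for SP/KLF, YY1, NRF1 and CRE, and members without a peak are highest for NF-Y and ETS. The CRE bars of the members rest on 1 of 21 and 1 of 48 promoters.

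The 53 genes without a boundary peak were mostly far from any summit. Their nearest summit lay over 5 kb from a boundary in 45 cases and over 50 kb in 15, with a median distance of 25.8 kb. Such distances are common in the genome, with a median of 22.4 kb over all protein-coding genes, those with a peak included. Over all 78 members the median was 8.51 kb. The closest summit among the 53 genes was at Mrpl18, 1128 bp from its annotated boundary. This peak of fold 2.41 lay inside the gene, 568 bp upstream of its listed start site. It was followed by Mrpl22 (1652 bp), Mrps25 (1764 bp), Mrpl53 (2801 bp) and Mrpl34 (2929 bp). A summit in the gene interior was present in 4 of the 53, at Mrpl18, Mrps25, Mrpl19 and Mrps18a. With the genes that had a boundary peak included, it was 24 of 78 (30.8%), against 29.4% of all protein-coding genes. The farthest of the 53 was Mrps26, with no summit within 289 kb.

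Other genes of mitochondrial translation were read from a list of 58 symbols, of which 56 matched the annotation. Boundary peaks were found at 16 of the 56 (28.6%), against the same 18.8% of all genes, and a summit 5 to 7 kb outside at 10 (17.9%), against 8.6%. Ribosomal subunits that carry other names had peaks at 3 of 5 genes (60%), beside 18.8% of all genes. Ptcd3 and Gadd45gip1 had 2.59 and Dap3 1.95, with the summit of Dap3 999 bp from the boundary. Assembly and rRNA-modification factors had 7 of 23 (30.4%). Malsu1, which keeps the subunits from joining too early, had the highest fold of the list (4.18, 129 bp inside the gene), followed by the helicase gene Ddx28 (2.77) and the GTPase gene Mtg1 (2.45). Noa1 and Dhx30 had 2.13, Gtpbp10 2.04 and the rRNA methyltransferase gene Nsun4 1.77.

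Translation factors had peaks at 3 of 12 genes (25%), against 18.8% of all protein-coding genes. Pdf, which removes the formyl group from new chains, had 3.04, the elongation factor gene Guf1 1.95 and the initiation factor gene Mtif2 1.91. Genes for membrane insertion and mRNA handling had 3 of 10 (30%). Slirp had 2.54, Tbrg4 2.0 and the RNA-degrading enzyme gene Pnpt1 1.82. Ptcd3, Gadd45gip1, Dap3, Pdf, Ddx28, Noa1 and Slirp had another protein-coding gene within 1 kb of the summit. None of the 6 genes of mitochondrial transcription, Polrmt and Tfam among them, had a boundary peak, against 18.8% of all protein-coding genes. That list is too short for the count to set it apart. Outside 1 Mb windows with 30 or more peaks, the list fell to 6 of 39 (15.4%), against 13.5% of all genes, beside the 17 of 62 for the Mrpl and Mrps genes.

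Set beside the other ribosome of the cell, the family had far fewer peaks. Of 88 cytosolic ribosomal protein genes, 72 (81.8%) had a boundary peak, with a median highest fold of 2.95, and 34 (38.6%) reached a fold of 3. Nuclear genes of oxidative phosphorylation, whose products work with those that the mitochondrial ribosome makes, were closer, with 27 of 88 (30.7%), a median of 2.36 and 5 (5.68%) at a fold of 3. Control windows held a summit in 4.55% and 5.68% of these lists. Cytosolic genes also had their summits close to the start, with 38 of 60 (63.3%) from 0 to 100 bp downstream. The median CpG ratio of the cytosolic promoters was 0.855, beside 0.818 in the mitochondrial family, and the median gene length was 3.18 kb, beside 7.69 kb. These lists are set side by side as values, and no test of their difference was run.

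**Figure D5:**
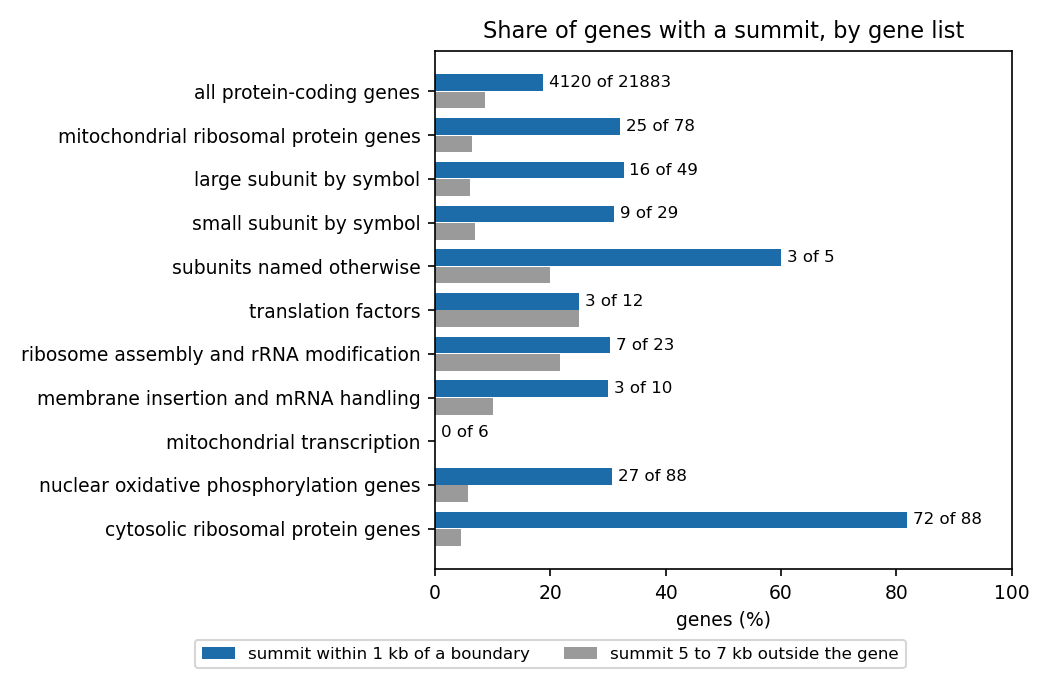
Share of genes (%) with a summit within 1 kb of a boundary (blue) and 5 to 7 kb outside the gene (grey) for each list, with the number of genes beside the blue bars. The Mrpl and Mrps genes (25 of 78) lie near the oxidative phosphorylation genes (27 of 88) and well under the cytosolic ribosomal protein genes (72 of 88).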

How the data were processed

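ChIP-seq for HA-tagged NELFA was represented by 1 peak list from 4 immunoprecipitated and 3 input libraries. Trim Galore 0.4.2, Bowtie2 2.2.9, SAMtools 1.4 and MACS2 are named with build mm10 in the submitters' processing notes. The peak-calling settings, the way libraries were combined and the handling of multiply aligned reads are not given in these sources. The deposited columns used were the fold enrichment (a linear ratio), the −log10 q-value and the summit's offset. The deposited score, a whole number per peak, was read and entered no result. The lowest −log10 q was 1.31. The read depth is unknown.

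The 58625 peaks on chromosomes 1 to 19, X and Y were compared with RefSeq gene boundaries and promoter windows of GRCm38.p6, with Python 3.11.15, numpy 2.4.6, pandas 2.3.3 and matplotlib 3.10.9. Summits were counted within 1 kb of gene boundaries, of any listed start site and 5 to 7 kb outside genes. Counting was tested on simulated summits planted at known distances. Structural classes were assigned from general knowledge of ribosome nomenclature, so paralogues such as Mrps18a, Mrps18b and Mrps18c can fall in different classes. The family and the lists were chosen with earlier results of these data known, and the classes, neighbour arrangement and CpG limit after the values were seen. The rule for named genes took all members with a boundary peak if 30 or fewer, the 5 nearest without one, and pathway genes with one. Further genes without a peak (such as Mrps26, Mrps18a and Mrps18c) were named after their values were seen. The 20 RNA-seq and 8 ATAC-seq samples measure other things than NELFA binding and were not used.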

Additional observations from a re-analysis of the deposited data

How the results depend on the processing

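In 10 of the 11 other settings tried, boundary peaks were found at a larger share of the family than of all protein-coding genes or, for members sorted by place in the ribosome, than in the 18.8% of the main count. Within classes of promoter the difference was smaller or absent, with 32.8% against 29.8% for CpG-rich promoters and 26.3% against 27.8% for those not head to head. A window of 500 bp gave 26.9% against 16.1%, and 2 kb gave 35.9% against 21.8%. The exception was a fold of at least 3, with 2 members (0 large, 2 small subunit), 2 pathway genes and 750 of all genes. As shares of the 78, 56 and 21883 genes these were 2.56%, 3.57% and 3.43%. At or above the median fold, 13 members remained counted (8 and 5), 9 pathway genes and 2722 of all genes. The shares were 16.7%, 16.1% and 12.4%. At a −log10 q of 4 or more there were 12 (7 and 5), 7 and 2147, or 15.4%, 12.5% and 9.81%. These counts drop because fewer peaks enter. With each summit given to the gene with the nearest annotated boundary the large subunit had 9 of 49 (18.4%), against 17.0% of all genes. Outside dense windows the small subunit had 4 of 21 (19.0%), the pathway list 6 of 39 (15.4%) and all genes 2345 of 17329 (13.5%). For all 78 members, 8 settings left the count within 1.5-fold and 3 moved it further. The fold of 3, the nearest-gene setting and the sorting by place were added after the data were seen. No library could be left out, since the list has no column per library. No paired analysis was possible because the result comes from no test. Without read depth, a gene with no peak cannot be told from one whose signal fell below the q-value limit of 0.05.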

Other observations

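The deposited fold and −log10 q take few values. The 28 boundary peaks of the family hold 13 distinct pairs of fold and −log10 q, and 22 of them share their pair with another member peak. Mrpl15, Mrpl49, Mrpl57 and Mrps28 all carry a fold of 2.45 with a −log10 q of 6.2. Over the 58625 placed peaks there are 1276 distinct pairs, and the 3 most frequent hold 15258 peaks (26%). The most frequent pair, a fold of 1.91 with a −log10 q of 2.1, belongs to 5348 peaks. For 27 of the 28 member peaks at least 100 peaks of the list have the same pair, Mrps18b being the exception with 80. Small differences of fold between members therefore amount to a step or more on a coarse scale.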
